A study of Homo sapiens with 12 samples.

Results

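The elements described here are the 12 single substitutions at position 7 of the Pumilio response element, which reads TGTA, any base, then ATA in DNA letters. The rule that chose them uses sequence alone and no editing value, although earlier results of these data were known. Of the 1006 entries listed in all 12 libraries, the members are the 8-base elements that match the motif at each fixed position except position 7. Positions are numbered from the element's 5′ end, which is 1. The 3 other bases at position 7 each occur with all 4 bases at position 5, and each member has a consensus partner with the same base at position 5.

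The study used RBPscan, an assay that records where an RNA-binding protein sits by the edits a fused deaminase leaves nearby, in HEK293T cells. This human embryonic kidney line is labelled wild type. All groups shared these cells and a pool of recorder mRNAs, each with an element and a recorder hairpin in its 3′ UTR. There were 4 groups of 3 biological replicates: human PUM2 fused to ADARcdMUT, a mutated catalytic domain of the adenosine deaminase ADAR, without induction; the same fusion at 25 ng; the same fusion at 250 ng; and, at 1000 ng, ADARcdMUT that lacks PUM2. Doxycycline, a drug that switches on transgenes, induced the fusion. The titles give the amounts with no substance or volume. No source used here says whether 1000 ng is on the scale of the fusion's amounts, or how much protein was made.

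Pumilio proteins are repressors that sit on the 3′ UTRs of mRNAs and recruit enzymes that shorten the poly(A) tail. Their RNA-binding domain is a curved row of helical repeats, and each repeat reads a base of the element. The protein and the RNA run in opposite directions, so the TGTA core lies on the repeats near the carboxy terminus and position 7 on those near the amino terminus. ADAR turns adenosine into inosine, which is read as G, so editing of the recorder hairpin appears as A-to-G changes.

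The 12 members are shown because the comparisons rest on which base replaces T at position 7, the capital letter, and on the base at position 5. The 4 consensus partners precede them for comparison.
consensus, A at position 5: tgtaaaTa
consensus, C at position 5: tgtacaTa
consensus, G at position 5: tgtagaTa
consensus, T at position 5: tgtataTa
T7A, A at position 5: tgtaaaAa
T7A, C at position 5: tgtacaAa
T7A, G at position 5: tgtagaAa
T7A, T at position 5: tgtataAa
T7C, A at position 5: tgtaaaCa
T7C, C at position 5: tgtacaCa
T7C, G at position 5: tgtagaCa
T7C, T at position 5: tgtataCa
T7G, A at position 5: tgtaaaGa
T7G, C at position 5: tgtacaGa
T7G, G at position 5: tgtagaGa
T7G, T at position 5: tgtataGa

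The libraries held 11235321 to 25127959 reads, and a member had 6138 to 40063 reads in a library. The exact (Clopper-Pearson) 95% interval of a member's share of edited reads reached 0.328 to 0.817 percentage points to either side. It covers the counting of reads only. No molecular identifiers are mentioned, so PCR copies of a molecule may count as separate reads, and the interval is a lower limit. The editing level of an element is its edits as a percent of 7 recorder adenosines times its reads. Tests were made on its log2 odds with limma, and a call means an adjusted p under 0.05 over all elements or all pairs tested.

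The first question was how far the members are edited with and without the fusion. All 12 rose once the fusion was induced, and they spread apart as they did so. The median of the 12 was 1.84% ± 0.0844 (SD, n = 3) without induction, 5.001% ± 0.363 at 25 ng, 9.14% ± 0.191 at 250 ng and 1.95% ± 0.102 with ADARcdMUT alone. The medians of all 1006 elements were 1.82% ± 0.0991, 4.34% ± 0.194, 7.87% ± 0.0991 and 1.95% ± 0.1201 in the same groups. Single members had means from 1.70% to 1.959% without induction and from 1.81% to 2.10% with ADARcdMUT alone, but from 4.30% to 6.19% at 25 ng and from 8.02% to 11.3% at 250 ng. In each of the 5 comparisons of an induced group with another group, limma called 12 of 12 members higher. So it did 100% of all elements, and the count says nothing particular to the members. Between ADARcdMUT alone and no induction limma called 0 of 12 members, against 0.199% of all elements. At an unadjusted p under 0.05 there were 3 members and 17.6% of all elements, and a quasi-binomial model called 0 members and 0% of all elements. Leaving out ADARcdMUT replicate 3 gave 2 calls among the members, where 11.7% of all elements were then called.

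T7A left the highest levels of the 3 bases, with a median of 10.6% ± 0.202 (SD, n = 3) over its 4 elements at 250 ng. The element tgtacaAa was edited at 11.2%, 11.1% and 11.7% in the 3 libraries, and its partner tgtacaTa at 13.5%, 13.0% and 13.8%. For tgtataAa the values were 10.8%, 11.0% and 11.1%, against 13.9%, 13.5% and 14.2% for tgtataTa. Neither member overlapped its partner, and both stood among the top of the library, at ranks 7, 11 and 6 for tgtacaAa and 12, 12 and 13 for tgtataAa out of 1006. With A at position 5, tgtaaaAa had 9.95%, 10.2% and 10.5%, and tgtaaaTa 12.9%, 13.3% and 13.5%. With G at position 5, tgtagaAa had 8.72%, 9.26% and 9.20%, and tgtagaTa 11.7%, 11.3% and 11.4%. These lay below their partners in all 3 libraries as well. The T7A element with G at position 5 was the lowest of the 4, and its lowest library was still above the highest library median of 7.97%.

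With T7C, the members with A or G at position 5 were edited little more than the typical element. The element tgtaaaCa had 7.88%, 8.15% and 8.25% at 250 ng, and tgtagaCa had 8.01%, 7.94% and 8.12%. Library medians over all elements were 7.78%, 7.87% and 7.97%, so both members lay just above the median in each library. With C at position 5, tgtacaCa had 8.92%, 8.85% and 9.23%, and with T, tgtataCa had 8.66%, 8.59% and 8.97%. The values of these lay further above the medians. In each library, every T7C element was below its consensus partner, without overlap between the 3 libraries of both. The median of the 4 T7C elements was 8.44% ± 0.151 (SD, n = 3).

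With T7G, the members formed a higher and a lower pair according to the base at position 5, around a median of 9.94% ± 0.103 (SD, n = 3). The element tgtacaGa had 10.7%, 11.0% and 11.4% at 250 ng, and tgtataGa had 10.8%, 10.5% and 10.9%. Both overlapped the T7A element with the same base at position 5. By contrast tgtaaaGa had 8.93%, 9.32% and 9.14%, below all 3 libraries of tgtaaaAa, and tgtagaGa had 8.81%, 8.33% and 8.63%. In the order of means at 250 ng, from tgtacaAa down through tgtacaGa, tgtataAa, tgtataGa, tgtaaaAa, tgtaaaGa, tgtagaAa, tgtacaCa, tgtataCa, tgtagaGa and tgtaaaCa to tgtagaCa, only 3 of the 11 steps separated the libraries completely. These were the steps below tgtataGa, tgtaaaAa and tgtagaGa, and all other neighbours overlapped.

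At 25 ng the T7A and T7G elements with C or T at position 5 were again the 4 highest members, and tgtagaCa was again the lowest. The element tgtacaGa had 6.17%, 6.65% and 5.76% in the 3 libraries, and tgtataGa had 6.01%, 6.45% and 5.69%. At the other end tgtagaCa had 4.23%, 4.32% and 4.36%, against library medians of 4.26%, 4.57% and 4.20%. The highest pair did not overlap tgtagaCa, which was above its library median in 1 of 3 libraries. In the order of the 12 means, 0 of the 11 steps at 25 ng, without induction or with ADARcdMUT alone separated the libraries completely.

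Because induction raised the whole library, the members were also placed against the median log2 odds of their own library. At 250 ng against no induction 8 of 12 members were higher and 0 lower, where 9.64% of all elements were higher, and the median change of the 12 was 0.32 against 0.01 over all elements. The largest was that of tgtacaAa at 0.66 (SE 0.06, limma adjusted p = 2.99e-06), followed by tgtataAa at 0.50 and tgtataGa at 0.48. The 4 members without a call were tgtaaaCa at -0.06, tgtagaCa at 0.02, tgtataCa at 0.11 and tgtagaGa at 0.12, which include 3 of the 4 T7C elements. The fourth T7C element, tgtacaCa, was higher by 0.31 (SE 0.07, limma adjusted p = 0.0045). At 25 ng against no induction 7 of 12 were higher, where 7.06% of all elements were, and tgtagaAa, at 0.17, was the member no longer called (limma adjusted p = 0.12). At 250 ng its value was 0.23, and that call was lost without non-induced replicate 1 or 2 and without any of the 3 fusion 250 ng replicates. On the share of reads with an edit in place of edited adenosines, 5 of 12 were higher at 250 ng, without tgtaaaGa, tgtacaCa and tgtagaAa, where 6.66% of all elements were higher on that scale.

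Set against ADARcdMUT alone, 7 of 12 members were higher at 250 ng and 6 of 12 at 25 ng relative to the library median, where 10.3% and 7.55% of all elements were. None of the 4 T7C elements was among them, with changes from -0.08 to 0.15 at 250 ng and from -0.12 to 0.17 at 25 ng. The T7A and T7G elements with C or T at position 5 changed by 0.54 to 0.60 at 250 ng. From 25 ng to 250 ng limma called 0 of 12 members relative to the median, where it called 0% of all elements, and 0 members had an unadjusted p under 0.05. Their changes lay between -0.02 and 0.11. On the arcsine square root scale 4 of 12 were called, against 3.48% of all elements. Between ADARcdMUT alone and no induction 0 of 12 were called relative to the median in log2 odds, and 0.199% of all elements were. At an unadjusted p under 0.05 there were 2 members and 13.3% of all elements. Without ADARcdMUT replicate 3 there was 1 call among the members, where 2.09% of all elements were called.

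Each member was then compared, within each library, with its consensus partner. All 12 were lower than their partner at 250 ng and at 25 ng, in every library, and 0 were called without induction. At 250 ng the difference in log2 odds was largest for tgtaaaCa, at -0.79 (SE 0.07, limma adjusted p = 2.00e-06), an odds ratio of 0.577. It was smallest for tgtacaAa, at -0.28 (SE 0.06, limma adjusted p = 0.00229), an odds ratio of 0.822. The call of tgtacaGa (-0.32) was lost without fusion 250 ng replicate 1, and that of tgtataAa (-0.39) without replicate 1 or 3. The median difference was -0.38 for the 4 T7A elements, -0.70 for T7C and -0.44 for T7G. Among all 1780 pairs in which an element differs from a less changed one at 1 base, the more changed element was lower in 46.1% at 250 ng and in 39.3% at 25 ng. Only 84 of these pairs start from a consensus element, so the shares mostly describe elements that were already changed. All 84 single substitutions had a median level of 8.90% ± 0.158 (SD, n = 3) at 250 ng, against 9.14% ± 0.191 for the members. At 25 ng the medians were -0.36 for T7A, -0.61 for T7C and -0.35 for T7G.

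Without induction the 12 differences lay between -0.14 and 0.14, and limma called 0 of them, where 4.66% of such pairs were called either way. At an unadjusted p under 0.05 there were 0 of the 12, against 19.5% of such pairs. With ADARcdMUT alone 3 members were above their partner, where the more changed element was higher in 6.18% of such pairs: tgtacaAa by 0.25, tgtacaCa by 0.30 and tgtataCa by 0.31. These 3 calls rest on the spread pooled over the 4 groups, and 0 were called when only the 3 ADARcdMUT libraries were used, as were 0% of such pairs. The change of the difference from no induction was called downward for 10 of 12 members at 250 ng and 9 of 12 at 25 ng, against 36.1% and 29.2% of such pairs. Uncalled at 250 ng were tgtacaAa at -0.16 (SE 0.09, limma adjusted p = 0.245) and tgtataAa at -0.43 (SE 0.15, limma adjusted p = 0.0539). Against ADARcdMUT alone the change was called downward for 12 of 12 at both amounts, where 35.5% of such pairs were at 250 ng and 28.8% at 25 ng. In a fit of only the 2 groups 7 of 12 were called at 25 ng against ADARcdMUT alone, where 16.5% of such pairs were.

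No change of the difference from the consensus was called between the amounts of fusion. The change from 25 ng to 250 ng ranged from -0.15 (tgtataCa, SE 0.11) to 0.08 (tgtacaAa, SE 0.09), with limma calling 0 of 12, 0 at an unadjusted p under 0.05, and 0% of all such pairs either way. On the arcsine square root scale 2 of 12 members and 3.26% of such pairs were called. Spread in this fit is shared by induced and uninduced libraries, so the 0 calls do not show that the differences are equal.

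In percentage points, a member's place between the elements without TGT and its consensus partner was expressed as the share of the partner's excess that it kept. At 250 ng tgtacaAa kept 62.4% ± 1.36 (SD, n = 3), tgtacaGa 58.0% ± 4.57, tgtataAa 52.4% ± 3.79 and tgtataGa 48.4% ± 0.739. The lowest were tgtagaCa at 5.93% ± 2.17 and tgtaaaCa at 5.34% ± 1.69. The medians were 48.3% ± 1.59 for T7A, 37.1% ± 1.70 for T7G and 11.1% ± 0.999 for T7C at 250 ng, and these medians did not overlap between libraries. Single elements did overlap between bases: tgtacaGa kept more than tgtaaaAa and tgtagaAa, and tgtacaCa, at 21.3% ± 1.36, kept about as much as tgtagaGa, at 21.1% ± 6.41. At 25 ng the medians were 43.4% ± 3.62 for T7A, 41.1% ± 6.36 for T7G and 15.9% ± 6.44 for T7C, where T7A and T7G overlapped and T7C stayed below both. The elements with A at position 5 were the case where T7A and T7G parted most, with 44.2% ± 1.76 kept by tgtaaaAa and 24.5% ± 2.87 by tgtaaaGa at 250 ng.

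Which of the 3 bases stands at position 7 was tested over 12 pairs of members with the same base at position 5. At 250 ng 7 of the 12 were called, where 13.9% of all 3821 pairs of equally changed elements were. These include pairs of double substitutions, and the share among single substitutions alone is not given here. T7A was above T7C with all 4 bases at position 5, by 0.19 with G and by 0.37 with A, C and T (limma adjusted p from 0.000438 to 0.0395). T7G was above T7C with C and with T at position 5, by 0.33 each. T7A was above T7G with A at position 5 by 0.18 (SE 0.06, limma adjusted p = 0.0307). With C, G and T the differences of T7A over T7G were 0.04 (SE 0.07), 0.08 (SE 0.07) and 0.04 (SE 0.09), and none was called.

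At 25 ng 6 of the 12 pairs were called, where 12.1% of all such pairs were. The calls were those of 250 ng except T7A over T7C with G at position 5, which was 0.18 (SE 0.06, limma adjusted p = 0.0633). The count at 25 ng leaned on each library: it was 1 without fusion 25 ng replicate 1, and 3 without replicate 2 or without replicate 3, where 6.78%, 6.23% and 7.64% of all such pairs were called. It was also 3 on the share of reads with an edit, against 7.77% of all such pairs. Without induction limma called 0 of 12 and 5.76% of all such pairs, and 3 of the 12 had an unadjusted p under 0.05, against 21.6% of all. With ADARcdMUT alone it called 0 of 12 and 10.2% of all such pairs, and 2 of the 12 had an unadjusted p under 0.05, against 25.6% of all. The change from no induction to 250 ng was called for 5 of 12, against 10.7% of all such pairs: T7A over T7C with A, C and T at position 5, and T7G over T7C with A and T. From 25 ng to 250 ng limma called 0 of 12 and 0% of all such pairs, with 0 of the 12 at an unadjusted p under 0.05.

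The base at position 5, which the motif leaves free, was tested over the 18 pairs of members with the same base at position 7. At 250 ng 8 of 18 were called, against the 13.9% of all such pairs. C at position 5 was above G with each base at position 7, by 0.36 with T7A, 0.18 with T7C and 0.40 with T7G. T was above G by 0.31 with T7A and 0.36 with T7G, and not called with T7C, at 0.13. With T7G, C and T were also above A, by 0.31 and 0.26. A was above G with T7A by 0.19. Between C and T the 3 differences were 0.05 each, with SEs from 0.06 to 0.08 and no call. The consensus partners also had their lowest mean at 250 ng with G at position 5. It was 11.5%, against 13.2% with A, 13.4% with C and 13.9% with T. The low level with G is thus not particular to the members. The count of 8 was 4, 5 and 5 without fusion 250 ng replicate 1, 2 and 3, where 8.11%, 8.43% and 7.85% of all such pairs were called. It was 5 on the share of reads with an edit, against 7.96% of all such pairs. It was 14 on the arcsine square root scale and 14 when only the 250 ng libraries were used, where 30.5% and 49.1% of all such pairs were called. At 25 ng 8 of 18 were called as well, against 12.1% of all such pairs, and 5 without fusion 25 ng replicate 2, against 6.23%. Without induction limma called 0 of 18, with 2 at an unadjusted p under 0.05, against 21.6% of all such pairs at that level. With ADARcdMUT alone it also called 0, with 1 at an unadjusted p under 0.05, against 25.6%.

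Substitutions at other positions, with the same base at position 5, gave a scale for what a change at position 7 costs. Each position offers 36 pairs of a member with another single substitution. At 250 ng the member was higher in 21 pairs and lower in 0 against position 1, higher in 13 and lower in 0 against position 2, and higher in 20 and lower in 0 against position 3. No called pair put a member below a substitution in the TGT at the 5′ end. Against position 4, the A of TGTA, the member was higher in 7 and lower in 6. Against position 6 it was higher in 9 and lower in 5, and against position 8, the last base, higher in 3 and lower in 11. These shares are to be read against the 13.9% of all pairs of equally changed elements that were called at 250 ng, double substitutions included.

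Against positions 6 and 8, T7C accounted for most of the pairs in which the member was lower. Against position 8 it was lower in 9 of 12 pairs, with a median of -0.28, while T7A was higher in 2 and lower in 0, and T7G higher in 1 and lower in 2. Against position 6, T7A was higher in 6 of 12 and lower in 0, T7G higher in 3 and lower in 2, and T7C lower in 3 and higher in 0. The median level of the 12 members at 250 ng, 9.14% ± 0.191 (SD, n = 3), compares with 9.55% ± 0.0765 for the 12 substitutions at position 6 and 10.3% ± 0.234 for the 12 at position 8. The 14 pairs called against position 6 became 5, 4 and 3 without fusion 250 ng replicate 1, 2 and 3, and the 14 against position 8 became 8, 9 and 8, where 8.11%, 8.43% and 7.85% of all such pairs were called. With only the 250 ng libraries 29 and 28 were called, against 49.1% of all such pairs, so these counts depend on how the spread is estimated.

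A second change was then followed from each member. Of 216 pairs of a double substitution with the member it contains, the double was lower in 138 and higher in 1 at 250 ng, where 46.1% of all pairs of this kind were lower. Starting from T7A, 67 of 72 doubles were lower, with a median difference of -0.40. Starting from T7G, 59 of 72 were lower, with a median of -0.32. Starting from T7C only 12 of 72 were lower and 1 higher, with a median of -0.09. Before a second change the T7C elements had a median level of 8.44% ± 0.151 (SD, n = 3) at 250 ng. Elements without TGT had 7.80% ± 0.0961, T7A 10.6% ± 0.202 and T7G 9.94% ± 0.103. Whether the low starting level of T7C accounts for its fewer losses was not tested. By the position of the second change, 29 of 36 were lower at position 1, 26 at position 2, 23 at position 3, 26 at position 4, 23 at position 6 and 11 at position 8. Without induction 1 of the 216 doubles was lower and 7 were higher, close to the 1.24% lower and 3.43% higher of all pairs of this kind.

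Among called pairs with the same sign in all 3 libraries, the 3 largest losses started from tgtacaAa and tgtacaGa, the members with the most editing at 250 ng. Whether their high starting level accounts for the size of these losses was not tested. The capitals in these 4 double substitutions mark both changed positions. They are shown because they differ most from their member each way among those called pairs.
T1C with T7A: CgtacaAa
G2C with T7A: tCtacaAa
A4T with T7G: tgtTcaGa
T7C with A8T: tgtaaaCT
At 250 ng CgtacaAa had 7.21%, 7.41% and 7.61% in the 3 libraries, 0.67 below tgtacaAa in log2 odds (difference -0.67, SE 0.06, limma adjusted p = 2.22e-06). For tCtacaAa the values were 7.62%, 7.63% and 7.30%, and for tgtTcaGa 7.17%, 7.69% and 7.40%. All 3 thus lay below every library of the member they contain and below the library medians. The 1 double that was higher than its member was tgtaaaCT, with 9.36%, 9.12% and 9.04% against 7.88%, 8.15% and 8.25% for tgtaaaCa (difference 0.20, SE 0.07, limma adjusted p = 0.0414).

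The same pairs of positions can be read the other way, as the effect of changing position 7 in an element that already carries another substitution. At 250 ng this lowered editing in 99 of 216 pairs and raised it in 0, where it lowered editing in 12 of 12 pairs on the intact consensus and 46.1% of all pairs of this kind were lower. The 99 of 216 is close to that 46.1%, so the total says nothing particular to position 7. With the other change at position 6, 28 of 36 were lower, with it at position 4, 26, and with it at position 8, 23. With the other change in the TGT, 10 were lower on position 1, 11 on position 2 and 1 on position 3. These counts do not take into account how far each element was edited before position 7 was changed. The medians were -0.28 on position 4, -0.27 on position 6 and -0.06 on position 3, against -0.45 on the intact consensus.

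The editing level combines how many reads carry an edit and how many edits such a read holds, and at 250 ng 12 of 12 members lay below their consensus partner in both, in every library. On the log2 odds of the share of edited reads, limma called 10 of 12 members lower at 250 ng and 8 of 12 at 25 ng, where 30.9% and 26.2% of all pairs of this kind were lower on that scale. On edited adenosines it called 12 of 12 at both amounts, against 46.1% and 39.3% of such pairs. At 250 ng the share of edited reads of single members was 22.3% to 27.0%, against 26.9% to 30.1% for the 4 consensus elements, of which tgtagaTa was at the low end and overlapped tgtacaAa. Edited reads held 2.51 to 2.97 edits in the members and 2.99 to 3.22 in the consensus elements. By base, the median share of edited reads was 26.0% ± 0.334 (SD, n = 3) for T7A, 24.6% ± 0.241 for T7G and 22.8% ± 0.329 for T7C. Without induction the median share was 7.07% ± 0.135 for the members and 6.74% ± 0.128 for the consensus, and edited reads held 1.82 ± 0.0783 and 1.87 ± 0.0460 edits.

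The reads per element are a second readout, which the choice of members did not use. In edgeR's quasi-likelihood test 10 of 12 members were called in 250 ng against ADARcdMUT alone, where 66.5% of all elements were. Higher were tgtataAa (0.25 in log2, SE 0.06, adjusted p = 0.00539 in edgeR) and tgtataGa (0.16), and 8 were lower, by 0.08 for tgtacaAa up to 0.35 for tgtaaaAa (changes of -0.08 and -0.35). Over all elements 31.7% were called higher and 34.8% lower in this comparison. As a share of the listed reads, tgtaaaAa held 0.111%, 0.111% and 0.0993% in the 250 ng libraries and 0.127%, 0.134% and 0.137% with ADARcdMUT alone, without overlap. In the other 5 comparisons edgeR called 0 members and 0% of all elements. At an unadjusted p under 0.05 there were 6 of 12 members for 250 ng against no induction and 6 for 250 ng against 25 ng, where 42.7% and 32.0% of all elements were. There were 2 members for 25 ng against ADARcdMUT alone and 2 for ADARcdMUT alone against no induction, where 26.6% and 25.3% of all elements were, and 0 members and 0.0994% of all elements for 25 ng against no induction. DESeq2 called 7 members for 250 ng against no induction, 1 for 25 ng against ADARcdMUT alone and 1 for ADARcdMUT alone against no induction, where it called 30.9%, 2.58% and 9.24% of all elements. In the other 2 of these 5 comparisons it called 0 members and 0% of all elements, and in 250 ng against ADARcdMUT alone 11 members and 71.1% of all elements. Whether the change in read share bears on the editing level was not tested.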

How the data were processed

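PCR amplicons of the recorder 3′ UTR were sequenced, per the labels' protocols. The labels' extraction text names zebrafish embryos, whereas HEK293T is named as source and cell line and in the design text, and is taken as correct. Groups and replicate numbers came from the sample titles. No source used here names the aligner, the edit caller or the filters.

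The authors deposited, per element, counts of reads, of reads with an edit and of edits, the count of all reads, an efficiency score, a percent of adenosines edited and a percent of the library's reads. The deposited percent and score were recomputed from the counts within 1e-09, which gives 7 recorder adenosines per read. Of 1022 elements listed in any library, 16 not listed in all 12 were left out (lowest listed count 1015 reads).

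The value tested was log2((edits + 0.5)/(7 × reads − edits + 0.5)). Elements, elements relative to the library median, and 5601 within-library differences between pairs were each fitted with limma 3.58.1 in R 4.3.3 over the 12 libraries, with Benjamini-Hochberg adjustment over all 1006 elements or all 5601 pairs; calls need an adjusted p under 0.05. Pairs were 4845 pairs of elements that differ at 1 base and 756 pairs of single substitutions with the same base at position 5. Pairs share elements and are not independent. In 1780 pairs the more changed element was compared with the less changed, and in 3821 pairs both were equally changed. Reads per element were tested with edgeR 4.0.16 (TMM), and with DESeq2 1.42.0 as an alternative. Fits were tested on simulated data with the same spread in every group, so spread that differs between groups was not tried. Python 3.11.15 with pandas 2.3.3, numpy 2.4.6 and scipy 1.17.1 served for the rest.

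Named elements are the 12 members, the 4 consensus elements and, among called pairs with the same sign in all 3 libraries, the 3 doubles that differ most from their member each way at 250 ng. Only 1 qualified upward. Members, lists and tests were chosen with earlier results of these data known. Replicates differed in their counts by more than sampling (chi-squared 6.24 to 202 per degree of freedom), and all were kept as separate. Alternatives were other pseudocounts, the share of reads edited, an arcsine square root scale, a quasi-binomial model, other centrings, a minimum of 5000 reads, the replicate block, fits of fewer groups, and leaving out each library. Using only a group's own libraries for a mean was added after the data were seen.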

Additional observations from a re-analysis of the deposited data

How the results depend on the processing

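Of 706 values of 40 results under the alternatives, 662 equalled the count or stayed within 1.5 times it or, for levels and kept shares, within 1 SD. The cause of the other changes was not tested. On the share of reads with an edit, 5 members in place of 8 were higher relative to the library median at 250 ng against no induction, where 6.66% of all elements were. At 250 ng 5 in place of 8 pairs at position 5 and 7 in place of 14 pairs against position 6 were called, against 7.96% of all pairs of equally changed elements. At 25 ng 3 in place of 6 pairs at position 7 were called, against 7.77% of all such pairs. On that unit the members' median levels were by construction higher, at 7.07%, 14.8%, 23.8% and 7.08% for no induction, 25 ng, 250 ng and ADARcdMUT alone. On the arcsine square root scale, from 25 ng to 250 ng 4 members changed relative to the median and 2 changed against their partner, in place of 0 and 0. At 250 ng 14 pairs at position 5 were called on that scale in place of 8. Against positions 6 and 8, 22 and 24 were called in place of 14 each. Of all pairs of equally changed elements 30.5% were then called, in place of 13.9%. At 25 ng 13 pairs at position 5 were called in place of 8. No share of all such pairs is given for that fit, so the count is not read as particular to the members. With only the libraries of the group, 0 in place of 3 members were above their partner with ADARcdMUT alone. At 250 ng 14, 29 and 28 pairs were called at position 5, against position 6 and against position 8, where 49.1% of all pairs of equally changed elements were. With only the 2 groups compared, 7 in place of 12 members were lower than their partner at 25 ng against ADARcdMUT alone. For read counts at 250 ng against no induction, DESeq2 called 7 members in place of 0, and it called 1 in place of 0 at 25 ng against ADARcdMUT alone and 1 for ADARcdMUT alone against no induction, where it called 30.9%, 2.58% and 9.24% of all elements.

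In editing, single elements gave no sign that replicate numbers pair the libraries: deviations of same-numbered libraries correlated between -0.0946 and 0.0737, and those of other pairs between -0.0777 and 0.0929. These correlations cannot see a shift of a whole library, and read counts were not examined in this way. With the replicate number as a block 6 members were called for read counts at 250 ng against no induction in place of 0, where 26.6% of all elements were called, and of the other results 0 moved beyond these limits.

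With each library left out in turn, pairs at position 5 called ranged from 4 to 10 at 250 ng and from 5 to 10 at 25 ng, pairs at position 7 at 25 ng from 1 to 7, and pairs against positions 6 and 8 from 3 to 16 and from 8 to 14. Members called for ADARcdMUT alone against no induction ranged from 0 to 2 in absolute and from 0 to 1 in relative editing. Members called for read counts ranged from 0 to 6 (250 ng against no induction; 5 without fusion 25 ng replicate 1 and 6 without replicate 2), 0 to 4 (250 ng against 25 ng; 4 without fusion 25 ng replicate 1), 0 to 5 (25 ng against ADARcdMUT alone; 5 without fusion 25 ng replicate 2 and 1 without ADARcdMUT replicate 3) and 0 to 1 (ADARcdMUT alone against no induction; 1 without fusion 25 ng replicate 2), where 21.3%, 43.3%, 33.0%, 49.4%, 14.6% and 15.1% of all elements were called in the 6 fits named, in that order. The relative change of tgtagaCa at 250 ng ranged from -0.0276 (without non-induced replicate 2) to 0.0666 (without non-induced replicate 1) around 0.02, with no call. The spread shared by the 4 groups and 3 libraries per group limit what small differences can be called. The counting error of reads is only a lower limit to the error of single libraries.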
